A study of Corylus heterophylla with 6 samples.

Results

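In developing ovules of hazel (Corylus heterophylla), 499 of the 3669 ChARF3 binding peaks lay near, but not on, a peak of another ovule stage. These loci bound nearby at different stages were selected on position alone. A peak was kept when it overlapped no peak of the other 2 stages, had a peak of another stage on the same contig within 10000 bp edge to edge, and had no peak of its own stage within 10000 bp. Contig tig00007282 was left out, which left 3616 peaks. The members' positions and counts are therefore a description of what the rule chose, whereas their enrichment, fragment numbers and annotation played no part in the choice. Width entered it through the edges of the peaks.

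The chromatin came from ovules of 3 stages: Ov1.1 (ovule formation), Ov2.1 (early growth of the ovule) and Ov3.1 (its rapid growth). At each stage 1 library was immunoprecipitated with a polyclonal antibody raised against residues 1 to 380 of ChARF3 and 1 library was the input, made without antibody. The labels name all 6 libraries as wild germplasm, whereas the methods of the study name trees of the hybrid cultivar Dawei. No stage had a replicate library, so no difference between stages could be tested, intervals below cover counting error only, and peaks of a list are not replicates of a stage. Recovery of DNA by the antibody without ChARF3 was not tested in these files.

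ARF proteins are the transcription factors of the auxin response. Their B3 domain binds auxin response elements in DNA, and Aux/IAA repressor proteins hold the activating members in check until auxin triggers their breakdown. The study groups ChARF3 with the repressor ARF proteins of Arabidopsis and not with its ARF3 (ETTIN), and among those repressors Arabidopsis ARF2 limits the growth of the ovule integuments. In hazel the ovules form and grow only after pollination, which makes the stages successive steps of one organ's development.

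The 3 lists gave similar numbers of members. At Ov1.1, 170 of 1404 peaks met the rule, which is 12.1% of the list. At Ov2.1 the rule kept 179 of 1339 peaks (13.4%). At Ov3.1 it kept 150 of 873 peaks (17.2%), the highest share and the shortest list. Most other peaks had no neighbour: 957, 1041 and 660 peaks of the 3 lists were isolated in their own list and had no peak of another list within the limit. Direct overlap between stages was rare, with 5, 6 and 7 peaks overlapping a peak of another list. In the same order, 273, 114 and 57 peaks, a few of them overlapping another list, had a peak of their own list within 10000 bp, and 31, 9 and 16 of those would otherwise have qualified. Among the 3172 isolated peaks of all lists, 15.7% were members (95% exact Clopper-Pearson interval 14.5 to 17.0).

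By stage, 89 of the Ov1.1 members lay near an Ov2.1 peak only, 75 near an Ov3.1 peak only and 6 near both. The Ov2.1 members divided into 100 near Ov1.1 only, 73 near Ov3.1 only and 6 near both. The Ov3.1 members were split almost evenly, with 70 near Ov1.1 only, 69 near Ov2.1 only and 11 near both. Members sat on 138 of the 322 contigs that carried peaks. The highest number on 1 contig was 15, on tig00007103, followed by 14 each on tig00007008, tig00007112 and tig00007165, so the loci were spread through the assembly.

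At the edges of the rule, the most distant members were an Ov2.1 peak on tig00007011 with its neighbour 9987 bp away and the Ov1.1 and Ov3.1 peaks on tig00007307, which were 9935 bp apart. Just outside lay the Ov1.1 and Ov3.1 peaks on tig00007017, at 10003 bp, and an Ov1.1 peak on tig00006876 whose neighbour was 10084 bp away. For the condition on the same list, an Ov2.1 peak on tig00006945 was lost to a neighbour of its own list at 9912 bp, and 2 Ov1.1 peaks on tig00007414 stayed in at 10118 bp from each other.

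Pairs were formed for each pair of lists separately, from members that were each other's nearest peak of the other list, so that a member could pair once with each of the other lists. This gave 241 pairs, holding 461 of the 499 members. Of these pairs, 91 joined Ov1.1 with Ov2.1, 74 joined Ov1.1 with Ov3.1 and 76 joined Ov2.1 with Ov3.1. Of the other 38 members, 32 had as nearest neighbour a peak with another peak of its own list within the limit, and 6 a peak that lay nearer to another one. The median distance was 4807 bp for Ov1.1 and Ov2.1 (range 134 to 9682), 4503 bp for Ov1.1 and Ov3.1 (178 to 9935) and 5757.5 bp for Ov2.1 and Ov3.1 (173 to 9927). In the same order, 7, 6 and 9 pairs were closer than 1000 bp. At most 600 bp, the upper length to which the chromatin was sheared, separated 6, 4 and 5 pairs. The other 226 pairs were farther apart than such a fragment is long.

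To describe these numbers against placement within contigs, every permitted start position on each contig was gone through, with no random draws, and the share of positions that would have put the peak near a peak of the other list was set beside the share of peaks observed there. Of 1225 isolated Ov2.1 peaks, 106 or 8.65% (7.14 to 10.4) lay within the limit of an Ov1.1 peak, against 7.64% of positions, a ratio of 1.13 (0.935 to 1.36). For Ov3.1 peaks near Ov1.1 the count was 81 of 816 or 9.93% (7.96 to 12.2) against 7.98% of positions, a ratio of 1.24 (0.998 to 1.53). For Ov3.1 peaks near Ov2.1 it was 80 of 816 or 9.80% (7.85 to 12.1) against 7.89%, also a ratio of 1.24 (0.995 to 1.53). In each of these directions the ratio was above 1 and its interval for counting error held 1. These counts therefore did not settle whether there was an excess of peaks near another stage.

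**Figure D1:**
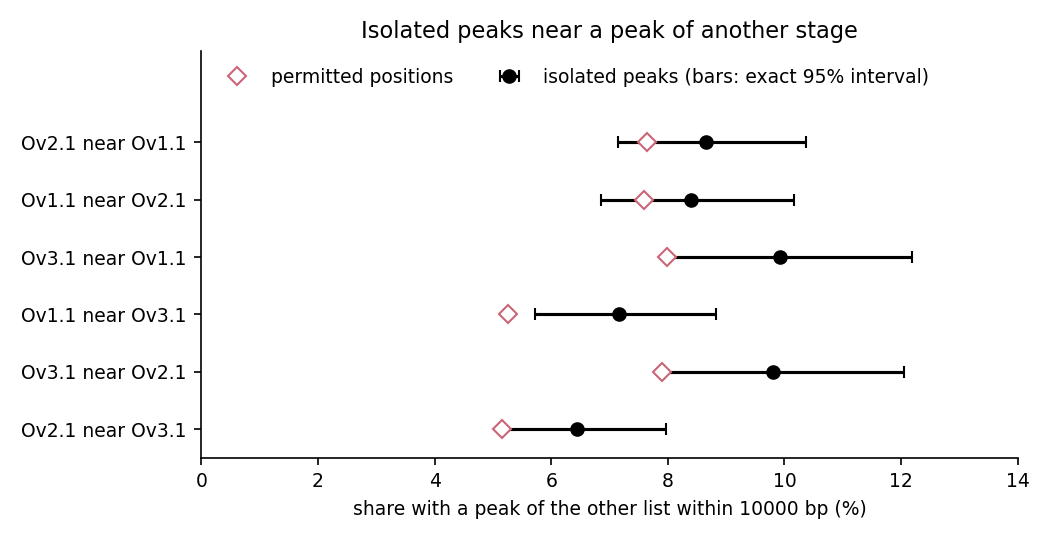
Share of isolated peaks of one list that had a peak of another list within 10000 bp (black points, with exact 95% intervals for counting error) beside the share of permitted positions on the same contigs (open diamonds), in percent on the horizontal axis. Each point lies to the right of its diamond, and only the interval of Ov1.1 peaks near Ov3.1 peaks (7.16% against 5.26%) leaves the diamond out.

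Counted from the other side, the ratios were 1.11 (0.902 to 1.34) for Ov1.1 peaks near Ov2.1, 1.25 (0.996 to 1.54) for Ov2.1 peaks near Ov3.1 and 1.36 (1.09 to 1.68) for Ov1.1 peaks near Ov3.1. The last was the 1 of 6 intervals that did not hold 1, with 81 of 1131 peaks or 7.16% (5.73 to 8.82) against 5.26% of positions. This interval held 1 under 5 of 11 alternatives, among them 1.20 (0.972 to 1.47) with the condition on the own list dropped and 1.16 (0.929 to 1.43) with contig spans starting at the smallest peak coordinate. The 6 ratios share peaks, since each pair of lists enters from both sides, and no test was run on them. Positions were taken as equal along a contig, whereas genes and mappable sequence are not evenly spread, and the part of this in the ratios was not tested.

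For Ov2.1 peaks near Ov1.1 and Ov3.1 peaks near Ov1.1 or Ov2.1, the ratio at short range was about the same as close to the limit or lower. Between 0 and 5000 bp the ratio to positions was 1.13 for Ov2.1 peaks near Ov1.1, 1.24 for Ov3.1 near Ov1.1 and 1.00 for Ov3.1 near Ov2.1, and between 5000 and 10000 bp it was 1.14, 1.24 and 1.49. Counted from the other side, it was 1.16 for Ov1.1 near Ov2.1, 1.32 for Ov1.1 near Ov3.1 and 1.09 for Ov2.1 near Ov3.1 over the shorter distances, and 1.05, 1.40 and 1.41 over the longer ones. Below 1000 bp the counts were 8, 9 and 9, where positions alone would have given 10.1, 7.01 and 6.67, and from the other side they were 7, 7 and 10, at ratios of 0.778, 1.14 and 1.55. From 10000 to 20000 bp, beyond the limit of the rule, the ratios were 0.977, 0.990 and 0.887, and from the other side 0.978, 1.22 and 0.903. The ratio of Ov1.1 peaks near Ov3.1, whose interval left out 1 within the limit, was thus above 1 beyond it as well, with 68 peaks against 55.7.

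**Figure D2:**
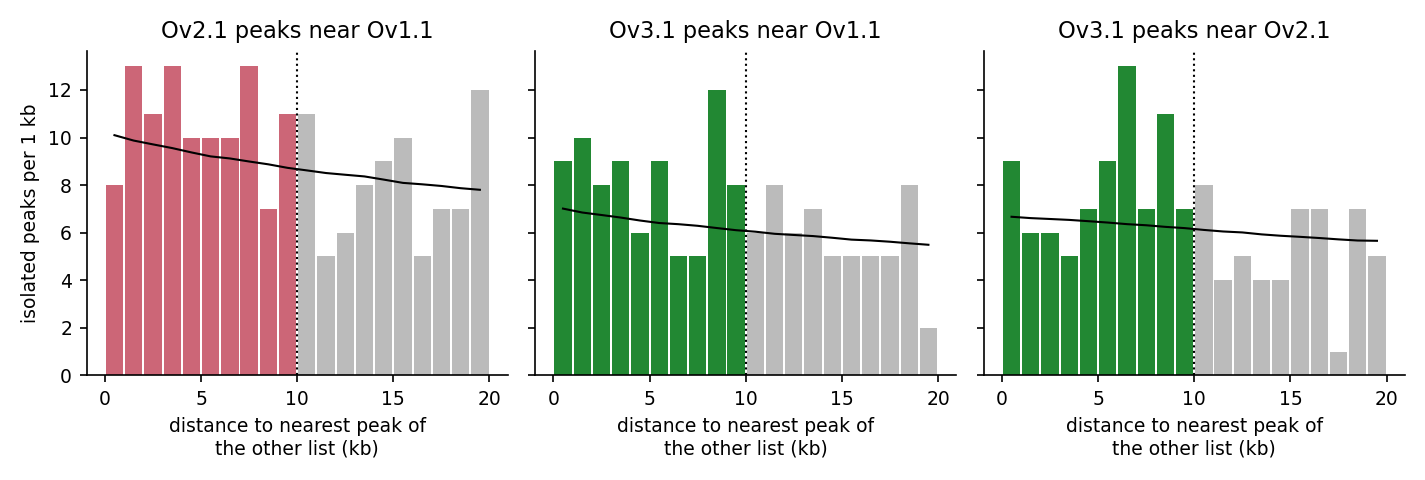
Isolated peaks per 1 kb of distance to the nearest peak of the other list (bars, coloured up to the limit of 10 kb and grey beyond it) and the number that an equal share of permitted positions would give (black line), for 3 pairs of lists. The bars lie on both sides of the line up to the limit and beyond it, with 8, 9 and 9 peaks in the first bin. For Ov2.1 near Ov1.1 every bar from 1000 to 8000 bp lies above the line. For Ov3.1 near Ov2.1 every bar lies above it from 5000 to 10000 bp and below it from 11000 to 15000 bp.

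The enrichment of members was like that of the rest of their list. Fold enrichment is the fragment pileup in the ChIP library over the local background that the peak caller estimates, with 1 added to each. The added 1 weighs more where fragments are few, so values of different lists are not on a like scale. The median was 3.24 among Ov1.1 members (range 2.31 to 4.70) and 3.21 among the other 1234 peaks. For Ov2.1 the medians were 3.87 (range 3.13 to 7.48) and 3.83 among 1160 other peaks. For Ov3.1 they were 3.59 (range 3.25 to 7.18) and 3.63 among 723 other peaks. The highest values of each list lay outside the members, at 7.05, 12.6 and 9.98. The median width was also close, at 337.5 and 329 bp for Ov1.1, 460 and 450 bp for Ov2.1 and 342.5 and 327 bp for Ov3.1.

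**Figure D3:**
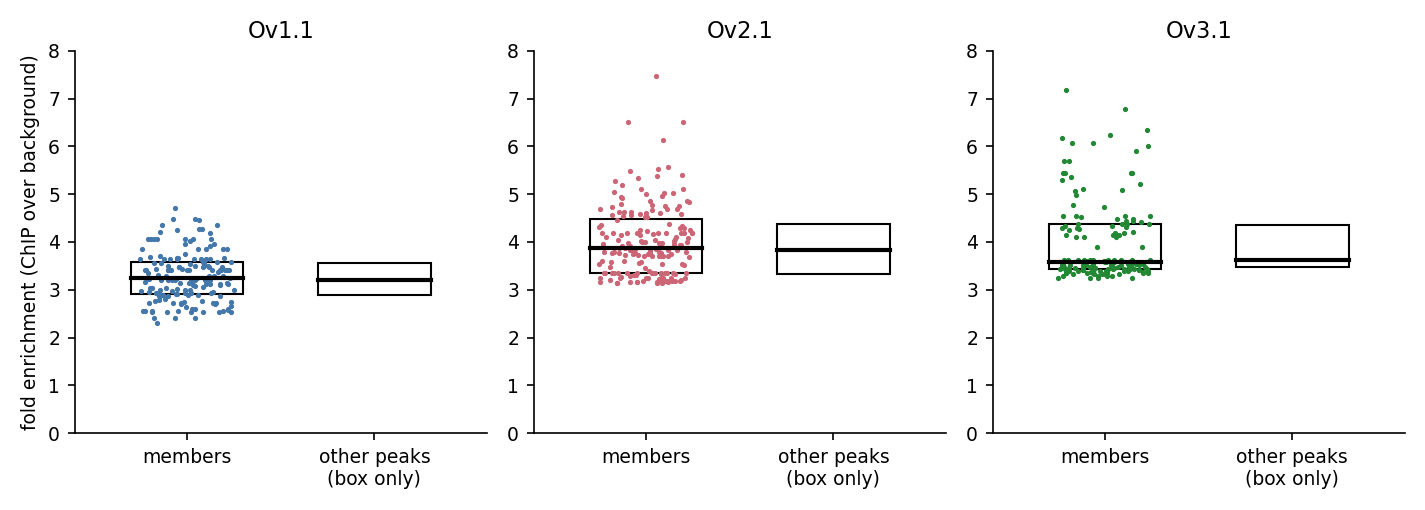
Fold enrichment of each member (points, spread sideways for view) in the 3 lists, with box and bar for the quartiles and the median, and the same box for all other peaks of the list. Medians of members and other peaks lie close together (3.24 and 3.21, 3.87 and 3.83, 3.59 and 3.63).

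The fragment number behind each peak, solved from its fold enrichment and p-value, shows how thin some peaks were. Ov1.1 members held a median of 18 fragments at the summit over a background of 4.46, other Ov1.1 peaks 17 over 4.45. Ov2.1 members held 4 fragments over 0.277, with a highest value of 9. Other Ov2.1 peaks held 4 over 0.252, with a highest value of 26. Ov3.1 members held 3 over 0.160, with a highest value of 7. Other Ov3.1 peaks held 3 over 0.151, with a highest value of 10. At Ov2.1 and Ov3.1 a member, like most other peaks of its list, was therefore a handful of fragments.

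Among Ov2.1 members, 47 of 179 or 26.3% (20.0 to 33.3) stood on 3 fragments, the smallest number in the list, against 460 of 1160 other peaks or 39.7% (36.8 to 42.5), and these intervals did not overlap. The median local background of the members was also higher, 0.277 against 0.252, and its part in this difference was not tested. At Ov3.1 the shares were 62.7% (54.4 to 70.4) and 59.6% (55.9 to 63.2). A −log10 q of at least 2 was reached by 50.0% (41.7 to 58.3) of Ov3.1 members and 60.2% (56.5 to 63.8) of other Ov3.1 peaks, by 46.4% and 44.6% at Ov2.1 and by 71.2% and 65.4% at Ov1.1. The direction differed between lists, so the members were not the stronger peaks throughout.

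The strength of the peaks in a pair was at most weakly related. Across pairs the fold enrichment percentiles, each within its own list, had a Pearson correlation of -0.12 for the 91 pairs of Ov1.1 and Ov2.1, 0.08 for the 74 of Ov1.1 and Ov3.1 and -0.27 for the 76 of Ov2.1 and Ov3.1, given as a description because all pairs share the same libraries. Both peaks were above the median of their lists in 22, 15 and 11 pairs, with peaks tied at the median not counted.

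The pair with the shortest distance of all lay on tig00007080, where an Ov2.1 peak (1370996 to 1371535, coordinates on the contigs of the hazel assembly the authors used) ended 134 bp before an Ov1.1 peak (1371670 to 1371915). Both were in an intron and within the gene model of Cor0128300.1 in the annotation of the study, which assigns the location and the closest gene of a peak separately, so that the location can belong to another gene model than the closest gene. The Ov1.1 peak had a fold enrichment of 3.41 from 16 fragments and the Ov2.1 peak 4.24 from 5. On tig00007070, at 347 bp, an Ov1.1 peak (1541843 to 1542096) with 15 fragments and an Ov2.1 peak (1541170 to 1541495) with 5 were likewise both intronic. Their closest gene was Cor0103510.1, whose gene model was not found to hold both peaks.

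The next cases were assigned to promoters. On tig00007011 the peaks were 140 bp apart with Cor0034860.1 as the closest gene, the Ov1.1 peak (97044 to 97309) with a fold enrichment of 2.55 and the Ov2.1 peak (97450 to 97845) with 4.34. Near Cor0171060.1 on tig00006921 the distance was 313 bp, with 2.41 at Ov1.1 (520769 to 521025) and 4.66 at Ov2.1 (521339 to 521897). Both Ov1.1 peaks were weak, at the percentiles 8.05 and 3.63 of their list. On tig00007341, at 326 bp, both peaks were distal intergenic, with Cor0074560.1 as the closest gene, and had fold enrichments of 3.48 and 3.92. All 5 shortest pairs of Ov1.1 and Ov2.1 thus had the same closest gene and the same kind of location at both stages.

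Between Ov1.1 and Ov3.1 the shortest distance was 178 bp on tig00000217. The Ov1.1 peak (247861 to 248357, 18 fragments, fold enrichment 4.06) was assigned to a promoter and to Cor0209040.1, annotated as a G-type lectin receptor kinase, a class of receptors on the cell surface, and the Ov3.1 peak (247408 to 247682) stood on 3 fragments with 3.25, close to the lowest value of its list. On tig00007182 an Ov1.1 peak in an exon of Cor0144990.1 (608715 to 609207, 4.18) was 211 bp from an Ov3.1 peak (609419 to 609720, 3.51). Near Cor0105640.1 on tig00007039 the distance was 295 bp, and near Cor0013990.1 on tig00007112 it was 926 bp, where the Ov3.1 peak had 7 fragments and a fold enrichment of 6.19. The pair on tig00000333, 399 bp apart, was the 1 short pair that was also among the 3 jointly highest by percentile. Its Ov1.1 peak (34548 to 34925), in an intron of Cor0218320.1, had a fold enrichment of 4.35 from 21 fragments, and its Ov3.1 peak (33809 to 34148) had 4.43 from 4.

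Between Ov2.1 and Ov3.1 the shortest distances were 173 bp on tig00002147, with the Ov2.1 peak in an exon of Cor0207040.1, and 216 bp on tig00007263, in intergenic sequence closest to Cor0045430.1. On tig00001036, at 551 bp, a promoter peak assigned to Cor0221500.1 was the strongest Ov2.1 peak of these short pairs (96230 to 96790, 7 fragments, 6.51), beside an Ov3.1 peak at 3.29. On tig00007124, at 558 bp, the Ov2.1 peak (338341 to 338676) was a promoter peak with closest gene Cor0175050.1, annotated as NRT1/PTR FAMILY 5.2, a transporter family for nitrate and peptides. On tig00007043, at 561 bp, the gene closest to the Ov2.1 peak was Cor0119310.1, a molybdenum cofactor sulfurase, which activates molybdenum enzymes such as that of the last step of abscisic acid synthesis. Fragment numbers at these 5 places ran from 4 to 7 at Ov2.1 and from 3 to 4 at Ov3.1.

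Other pairs were high in both lists. On tig00006927 an intronic Ov1.1 peak (770611 to 771056, 19 fragments, 4.27) lay 6636 bp from an exonic Ov2.1 peak (763648 to 763974, 6 fragments, 5.48). Both overlapped the gene model of Cor0095980.1, although the closest gene of the first was given as Cor0095990.1. On tig00007045 promoter peaks with closest genes Cor0180350.1 and Cor0180340.1 were an Ov1.1 peak (384752 to 385323) at 4.22 and an Ov2.1 peak (375830 to 376794) at 5.34, 7957 bp apart. On tig00007033 peaks 3984 bp apart with the same closest gene, Cor0056210.1, reached 4.06 and 6.51. For Ov1.1 and Ov3.1 the highest pairs besides that on tig00000333 were on tig00007167 (Cor0157180.1, 3.85 and 6.35, 6715 bp) and tig00007031 (Cor0080480.1, 3.92 and 4.38, 3844 bp). For Ov2.1 and Ov3.1 they were on tig00007211 (5.02 and 5.44, 7825 bp), tig00006973 (4.68 and 4.98, 1971 bp) and tig00007094 (4.45 and 4.52, 8078 bp).

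At 5 places members of all 3 lists lay within 10000 bp of one another. The most compact was on tig00002147, where the 3 peaks spanned 4920 bp, with Ov3.1 and Ov2.1 173 bp apart and Ov1.1 3774 bp further off. On tig00007169 the peaks spanned 5128 bp, and Cor0047190.1 was the closest gene at both Ov1.1 and Ov2.1. On tig00007182 the Ov1.1 and Ov3.1 peaks were 211 bp apart and the Ov2.1 peak 4827 bp from the first. On tig00006949 the peaks spanned 7656 bp and the gene closest to the Ov2.1 peak was Cor0063920.1, annotated as the xyloglucan endotransglucosylase/hydrolase XTH7, an enzyme class that loosens and rejoins xyloglucan in growing cell walls. The place on tig00006927, described above, was the widest at 9364 bp. Fold enrichment at the 5 places ran from 3.11 to 4.27 at Ov1.1, from 3.18 to 5.48 at Ov2.1 and from 3.29 to 4.31 at Ov3.1.

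**Figure D4:**
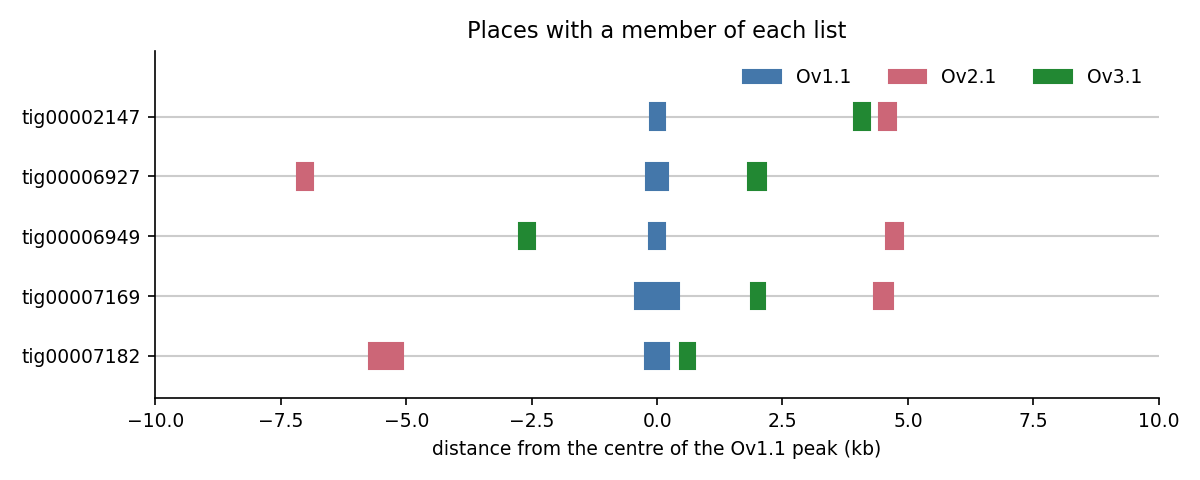
The 5 places with a member of each list, 1 row per contig, drawn to scale by distance in kb from the centre of the Ov1.1 peak (blue), with Ov2.1 in red and Ov3.1 in green. On tig00002147 the Ov2.1 and Ov3.1 peaks are 173 bp apart and on tig00007182 the Ov1.1 and Ov3.1 peaks 211 bp apart, and the other peaks are separated by over 1000 bp.

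Annotation was joined for the 170 Ov1.1 members and for 174 of the 179 Ov2.1 members. The copy of the annotation used here held few Ov3.1 peaks, so Ov3.1 was left out of the counts by location. The promoter class reached up to 3 kb from a gene start, and some of its peaks lay inside a gene model. Among Ov1.1 members, promoters held 65 or 38.2% (30.9 to 46.0), against 45.8% (43.0 to 48.6) of other Ov1.1 peaks. Distal intergenic sequence held 33 of the Ov1.1 members or 19.4% (13.8 to 26.2) against 15.0% (13.0 to 17.1). Exons held 40 of them or 23.5%, against 23.1% of other Ov1.1 peaks, and introns 23 or 13.5%, against 12.2%. Among Ov2.1 members the order was turned round, with promoters at 72 or 41.4% (34.0 to 49.1) against 36.1% (33.3 to 39.0) and distal intergenic sequence at 59 or 33.9% (26.9 to 41.5) against 43.6% (40.7 to 46.5). Exons held 12 Ov2.1 members or 6.90%, against 5.96% of other Ov2.1 peaks, and introns 22 or 12.6%, against 11.8%. Each of these intervals overlapped the one beside it.

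In 87 of the 91 pairs of Ov1.1 and Ov2.1 both peaks had an annotation. The closest gene was the same in 46 of them, or 52.9% (41.9 to 63.7), and differed in 41. The share depended on distance, at 15 of 18 pairs closer than 2000 bp, 17 of 29 from 2000 to 5000 bp and 14 of 40 beyond that. A closest gene is read from position, and the part of this in the fall with distance was not tested. The kind of location was the same in 46 of the 87 pairs, of which 24 were promoter with promoter, 12 distal with distal, 5 exon with exon and 5 intron with intron. Promoters at all distances counted as 1 kind, and the number that unrelated peaks would give was not worked out. In 21 pairs of Ov1.1 and Ov2.1, 18 of Ov1.1 and Ov3.1 and 10 of Ov2.1 and Ov3.1 both peaks overlapped 1 gene model. Only the models of closest genes held here were checked, and few Ov3.1 peaks had one. These counts are therefore lower limits and not alike between pairs of stages.

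**Figure D5:**
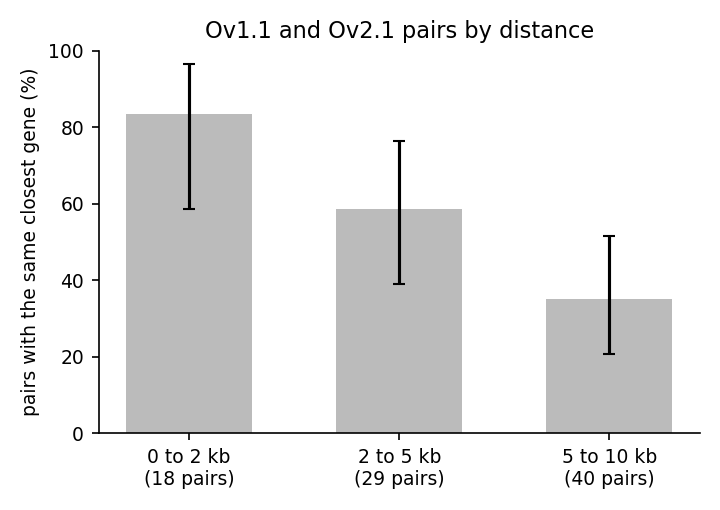
Percentage of annotated pairs of Ov1.1 and Ov2.1 peaks with the same closest gene, by distance between the peaks (bars from 0, error lines are exact 95% intervals for counting error). The share is 83.3% of 18 pairs below 2 kb, 58.6% of 29 from 2 to 5 kb and 35.0% of 40 from 5 to 10 kb.

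For 13 pairs with the same closest gene a description of the gene was also held. It came from the study's list of target genes differentially expressed in its RNA-Seq data, so only genes on that list could have one. These pairs were chosen after their values were seen. Regulators of transcription and of the cell cycle were among them. Both peaks of 1 pair were in an intron of Cor0059400.1, similar to Arabidopsis HsfB4, a class B heat stress transcription factor, 1702 bp apart, with fold enrichments of 2.90 at Ov1.1 and 4.01 at Ov2.1. Cor0060620.1, similar to CYCD3-3, a D-type cyclin that drives entry into the cell division cycle, was closest to an Ov1.1 peak (344387 to 344765 on tig00007165, 3.01) and an Ov2.1 peak (346658 to 346994, 4.23), 1892 bp apart. Cor0160270.1, similar to ECT4, a reader of methylated adenosine in RNA, had peaks 9001 bp apart.

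Metabolic and transport genes among these were Cor0011950.1 (AMY3, a chloroplast alpha-amylase of starch breakdown), with an Ov1.1 peak at 3.59 and an Ov2.1 peak at 3.86, Cor0170090.1 (HMA5, a copper pump) at 3.67 and 3.35, and Cor0022800.1 (SSL2, named for strictosidine synthase) at 3.03 and 3.35. Genes named for pathogen or surface recognition were Cor0141600.1 (RGA1), Cor0007860.1 (LRR1) and Cor0052530.1 (LRK10L-1.3). At Cor0007860.1 the Ov1.1 peak had the highest fold enrichment of all Ov1.1 members, 4.70 from 21 fragments. Cor0120550.1 (HIPL1) had the shortest distance of the 13, 465 bp, with 3.51 and 4.59, and Cor0093250.1, an uncharacterized protein, had peaks 2886 bp apart.

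The remaining described pairs joined an earlier stage with Ov3.1. Cor0175240.1, similar to KIN-10A, a kinesin of the phragmoplast that builds the new cell wall in division, had an Ov2.1 peak at 4.18 and an Ov3.1 peak at 3.25, 7643 bp apart. At Cor0010930.1, similar to RICE SALT SENSITIVE 3, a rice regulator of root cell elongation, peaks of Ov1.1 and Ov3.1 lay 2675 bp apart. The Ov1.1 peak there stood on 343 fragments over a background of 132, each the highest of any Ov1.1 member, and its fold enrichment was 2.59.

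Of 63 genes that the study names by symbol, 50 were closest to an annotated peak and 3 to a member, and each of those members lay near an Ov3.1 peak. Members were 3 of the 54 peaks at these genes, or 5.56% (1.16 to 15.4). This interval holds the 12.1% and 13.4% of the Ov1.1 and Ov2.1 lists. It does not hold the 17.2% of the Ov3.1 list. Few of these peaks came from that list and most from the other lists, so its share alone is not a like comparison. Cor0110070.1, IAA9, is an Aux/IAA repressor of the kind that restrains ARF proteins and that in tomato holds back fruit set. Its Ov1.1 peak (661901 to 662238 on tig00007074) had a fold enrichment of 3.31 from 25 fragments over 6.87, and the nearest Ov3.1 peak was 5491 bp away. Cor0212450.1, MYB97, whose Arabidopsis counterpart acts in the pollen tube, had an Ov2.1 promoter peak (67638 to 68128 on tig00006958) at 3.93 from 4 fragments, with an Ov3.1 peak 6977 bp away. Cor0068280.1, ERF1B, an ethylene response factor, had an Ov2.1 promoter peak (725511 to 725989 on tig00007285) at 3.18 from 3 fragments, with an Ov3.1 peak 6392 bp away. The closest genes of these Ov3.1 peaks were not used here.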

How the data were processed

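ChIP-Seq peak lists were used for 3 stages, with 1 ChIP and 1 input library each. Per the study's methods, reads were filtered with NGS QC Toolkit, aligned with Bowtie2 to the Corylus heterophylla genome of the HazelOmics database, and peaks were called with MACS2 from the ChIP and input libraries at a q of 0.05, with 1 list deposited for each stage. Versions of these tools, duplicate handling and the assembly's name were not given there. The deposited fold enrichment is a ratio of ChIP pileup to local background, taken here with 1 added to each. The deposited −log10 p-values and −log10 q-values come from MACS2, and the deposited peak score was not analysed. Read totals were not used here, so the depth behind a peak is its solved fragment number.

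Distances were counted edge to edge. Fragment number n and background b were solved from fold enrichment, taken as (n + 1)/(b + 1), and the Poisson p-value, within 0.01 of −log10 p for all 1404, 1339 and 873 peaks. A contig's span ran from position 1 to the largest coordinate of any peak on it, and start positions within 10000 bp of another peak of the own list were not permitted. Because the other lists entered as deposited, a peak may have been near one that was not isolated itself. Closest genes and locations were joined by exact coordinates from the study's annotation, without its values. Intervals are exact (Clopper-Pearson, 95%). Python 3.11.15, pandas 2.3.3 and scipy 1.17.1 were used, and the counting was tested on simulated data.

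Loci named were the 5 shortest and the 3 jointly highest pairs per pair of stages, places with all 3 lists, the 5 shortest Ov1.1 and Ov2.1 pairs with the same closest gene, members at genes the study names, and peaks at the limit. Outside this rule, the 13 pairs with the same closest gene and a description were added after their values were seen. The members, this rule and the gene list were chosen with earlier results of these data known. No sequence is shown because no genome was used.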

Additional observations from a re-analysis of the deposited data

How the results depend on the processing

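The number of members, 499, followed the limits of the rule. It was 257 with a distance limit of 5000 bp and 765 with 20000 bp, 154 when only peaks with a −log10 q of at least 2 entered and 36 when only peaks with a fold enrichment of at least 4 did, and it stayed within 1.5 times the reported number under the other alternatives. The ratio to positions ranged from 1.02 to 1.14 for Ov2.1 peaks near Ov1.1, from 1.02 to 1.30 for Ov3.1 peaks near Ov1.1 and from 1.00 to 1.28 for Ov3.1 peaks near Ov2.1, and its interval held 1 under 11, 9 and 8 of 11 alternatives. The other 3 directions were put through the same alternatives after the data had been seen. For Ov1.1 peaks near Ov2.1 the ratio turned to 0.990 with spans starting at the smallest peak coordinate, and for Ov2.1 peaks near Ov3.1 it turned to 0.986 among peaks with a fold enrichment of at least 4. For Ov1.1 peaks near Ov3.1 it fell to 1.04 under that limit. The cause was not tested. Contig ends are not known from the peak lists, and a few fragments per Ov2.1 and Ov3.1 peak limit every value at those stages. No paired analysis was possible because each stage had 1 ChIP library and no result comes from a test.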
